A study of Mus musculus with 24 samples.

Results

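The lysosomal cathepsins are the proteases that degrade proteins inside the lysosome. They were taken here by gene symbol from a deposited table of read counts, and all 10 symbols (Ctsa, Ctsb, Ctsd, Ctsf, Ctsh, Ctsk, Ctsl, Ctso, Ctss and Ctsz) were found among its 49568 genes. Their values are described in mouse fibroblasts treated with halofuginone or with vehicle, in total RNA and in 3 pools of a polysome gradient.

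Cathepsins are made as inactive precursors, carry mannose 6-phosphate tags that sort them to the lysosome, and mature in its acid interior. Ctsa is a serine carboxypeptidase and Ctsd an aspartic protease, and the others are cysteine proteases, which cystatins inhibit. In many cells their genes are targets of TFEB, TFE3 and MITF, factors that bind E-box motifs in the promoters of lysosomal genes. Halofuginone blocks the prolyl-tRNA synthetase site of Eprs, and by this it starves cells of charged prolyl-tRNA.

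NIH/3T3, an established line of mouse embryonic fibroblasts, was treated with halofuginone (labelled 100 nM) or with PBS as vehicle for 24 h. The groups were halofuginone and vehicle total RNA, halofuginone and vehicle ribosome-free RNA, halofuginone and vehicle light polysomes, and halofuginone and vehicle heavy polysomes, with 3 libraries in each of the 8 groups. Bovine calf serum was in the medium of every group. The question stated for the design was how halofuginone changes the transcriptome and the translatome.

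The 24 libraries held 10300517 to 24970047 counts each, and levels are given in CPM, the count of a gene scaled to the size of its library. The column headers part the libraries into set A (1 library in each group), whose halofuginone headers name 50 nM where the labels give 100 nM, and set B (tags 2 and 3 in total RNA, tags 2 and 4 in the pools). The sets also pooled gradient fractions under different numbers. The design text calls the libraries biological triplicates. The halofuginone total RNA libraries of tags 2 and 3 differed less from each other (chi-square per gene of 3.12) than any other pair within a group (21.1 or more), so p-values that rest on them measure a very small spread, which may be technical. All 8 fibroblast markers were present at 5 CPM or more in total RNA. None of 9 macrophage, 6 osteoclast, 5 epithelial and 5 endothelial markers reached that level, the macrophage marker Adgre1 and the osteoclast marker Calcr were at 0 counts, and 2 of 5 adipocyte markers reached it.

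In total RNA of vehicle cells the most abundant cathepsin mRNA per length was Ctsl, an endopeptidase of broad specificity, at 904 ± 154 CPM per kb of transcript (SD, n = 3). It was followed by Ctsb at 413 ± 16.9, Ctsd at 229 ± 77.1, Ctsa at 206 ± 56.4, Ctsz at 129 ± 20.6, Ctsk at 61.1 ± 4.18 and Ctso at 5.55 ± 1.19 CPM per kb. In this order only the neighbours Ctsd and Ctsa overlapped in their ranges. The halofuginone libraries gave the same order of means, at 773 ± 48.2 CPM per kb for Ctsl, 275 ± 123 for Ctsb, 187 ± 126 for Ctsd and 135 ± 121 for Ctsa, but there Ctsb, Ctsd, Ctsa and Ctsz each overlapped with the next. The place of Ctsl above Ctsb depends on the length used. With the union of all annotated exons, Ctsb stood at 324 and Ctsl at 275 CPM per kb in vehicle cells. The 3 other members were close to absent. Ctsh, an aminopeptidase, had 0 counts in all 6 total RNA libraries, which over the 3 libraries of a group allows a level of up to 0.0429 CPM in halofuginone and 0.051 CPM in vehicle cells (a floor of 3 counts, for counting error only). Ctss, which cuts the invariant chain in antigen-presenting cells, had 0 to 1 counts in halofuginone and 0 to 3 counts in vehicle libraries. Ctsf had 7, 0 and 1 counts in the halofuginone libraries of set A, tag 2 and tag 3, against 3, 2 and 0 counts in vehicle libraries.

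The comparison of halofuginone with vehicle in total RNA divided by set. In set B all 7 cathepsins with enough counts to be tested fell, by 0.46 (Ctsl) to 1.47 (Ctsa) on the log2 scale, while in set A, with 1 library a group and so no test, their log2 ratios to vehicle lay between -0.23 and 0.49. Over all 6 libraries none of the 7 passed the threshold, although all 7 estimates were below 0. Values below are CPM scaled by TMM within an RNA kind, given for set A, tag 2 and tag 3 in that order.

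Ctsa, which also shields the lysosomal glycosidases Neu1 and Glb1 from breakdown, stood at 1001, 238 and 234 CPM in halofuginone libraries, against 986, 606 and 658 CPM in vehicle libraries. The aspartic protease Ctsd was at 707, 248 and 235 CPM with halofuginone, against 675, 371 and 418 CPM with vehicle. For both genes the set A halofuginone library was the highest of the 6 and the set B halofuginone libraries were the lowest, so the groups overlapped. Ctsb, a cysteine protease that acts as an endopeptidase and as a peptidyl-dipeptidase, was at 1978, 999 and 941 CPM with halofuginone, against 2024, 1870 and 1986 CPM with vehicle. Both set B halofuginone libraries were below every vehicle library, and that of set A lay among them. Ctsl was at 1631, 1486 and 1452 CPM with halofuginone, against 1435, 1990 and 1922 CPM with vehicle, and here the lowest of the 6 libraries was the vehicle library of set A.

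Ctsk, the collagen-degrading cathepsin of osteoclasts, was at 120, 66.8 and 64.5 CPM with halofuginone, against 85.6, 93.4 and 98.2 CPM with vehicle. Ctsz, a carboxypeptidase also known as cathepsin X, was at 235, 120 and 113 CPM with halofuginone, against 219, 163 and 174 CPM with vehicle. In both genes the set A halofuginone library exceeded every vehicle library and those of set B were below every one. Ctso, a little-studied cysteine protease, was at 13.2, 9.97 and 8.34 CPM with halofuginone, against 15.5, 23.7 and 18.6 CPM with vehicle. It was the only member of the 7 whose halofuginone libraries all lay below all vehicle libraries, as did those of 11.6% of the 13020 genes tested, so 1 of 7 is near the background. Summed over the 10 genes, the cathepsins took 0.57%, 0.305% and 0.296% of the counts in halofuginone libraries, against 0.545%, 0.519% and 0.55% in vehicle libraries.

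**Figure D1:**
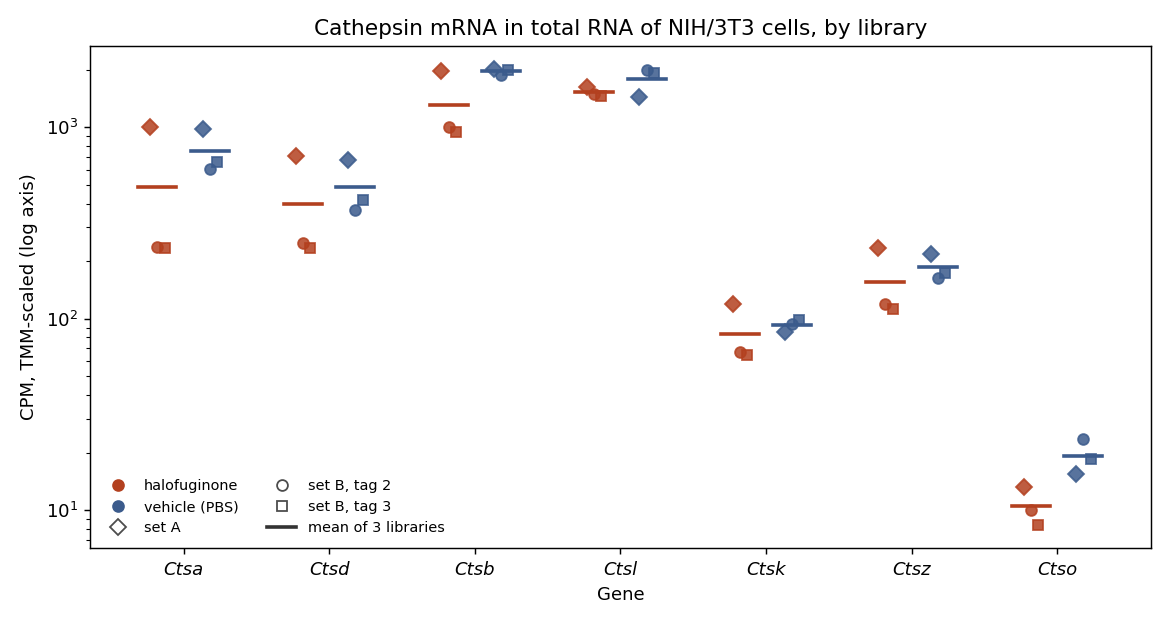
Level of 7 cathepsins in each total RNA library (vertical axis, TMM-scaled CPM on a log axis), with halofuginone libraries left of vehicle libraries, marker shapes for the set and tag of the library and a bar for the mean of 3 libraries. The set A halofuginone library stands at or above the vehicle libraries for Ctsa, Ctsd, Ctsk and Ctsz, while those of tags 2 and 3 lie below all vehicle libraries for every gene but Ctsl, where they exceed the vehicle library of set A.

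Fitted over all 6 libraries with edgeR's quasi-likelihood test, the log2 fold changes of halofuginone against vehicle were -0.61 ± 0.62 (SE) for Ctsa, -0.59 ± 0.31 for Ctsb, -0.30 ± 0.49 for Ctsd, -0.14 ± 0.27 for Ctsk, -0.23 ± 0.18 for Ctsl, -0.87 ± 0.26 for Ctso and -0.25 ± 0.32 for Ctsz. Adjusted p-values over all genes ran from 0.267 (Ctso) to 0.757 (Ctsk) in edgeR. The median of the 7 was -0.30, against 0.017 over the 13020 genes tested. At the adjusted threshold of 0.05 edgeR called 0 genes (0%) in this comparison, and 2292 genes had a raw p under 0.05. DESeq2 called 454 genes, of which 183 (1.34% of those it tested) were lower, and no cathepsin was among its calls. Leaving out the set A halofuginone library alone turned the edgeR count to 8246 genes, and 6 of the 7 cathepsins, all but Ctsl, then passed as lower, where 31.6% of the 13455 genes tested did.

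Within set B (2 libraries a group) each of the 7 cathepsins passed as lower with halofuginone in edgeR's quasi-likelihood test. The largest changes by edgeR were in Ctsa at -1.47 ± 0.07 (adjusted p = 2.16e-06), Ctso at -1.26 ± 0.15 (adjusted p = 0.00019) and Ctsb at -1.04 ± 0.07 (adjusted p = 1.1e-05). Ctsd followed at -0.75 ± 0.08, Ctsk at -0.59 ± 0.07, Ctsz at -0.58 ± 0.08 and Ctsl at -0.46 ± 0.07, with edgeR adjusted p-values of 0.000105 to 0.000613. The median of the 7 was -0.75, against -0.024 over all genes tested. Of 13334 genes tested in set B, 9337 (70%) were called and 4918 (36.9%) were called lower, so a call by itself was common, and 7 of 7 lower stands against that share. Set A has 1 library a group and gives ratios with no test. There the log2 ratio of halofuginone to vehicle ran from -0.23 (Ctso) to 0.49 (Ctsk) with a median of 0.066, and 2 of the 7 were below 0. For tag 2 the median was -0.58 and for tag 3 it was -0.83, with 7 of 7 below 0 in each. The tags did not pair the libraries in total RNA, so these are not 2 independent pairs.

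The 8 fibroblast markers moved with this pattern. All 8 fell in set B (edgeR, median log2 fold change -1.37), where 36.9% of all genes tested were called lower. Their sum ran from 4921 to 9929 CPM in halofuginone libraries, against 10330 to 11490 CPM in vehicle libraries. The summed macrophage markers were at 0.702 to 2.09 CPM with halofuginone and 1.53 to 3.35 CPM with vehicle, and the osteoclast markers at 0.227 to 0.408 CPM and 0.11 to 0.68 CPM, so markers of the cell types best known for Ctss and Ctsk were near 0 in both groups. The 5 adipocyte markers summed to 89.4 to 168 CPM with halofuginone and 134 to 282 CPM with vehicle, and the 2 that could be tested fell in set B. The part of these markers in the result was not tested. Every library came from the NIH/3T3 line, so the fibroblast markers describe the RNA of that line and not a share of fibroblasts among other cells. The dose named in the headers, 50 nM in set A, moves with the set, and so cannot be told apart from it.

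**Figure D2:**
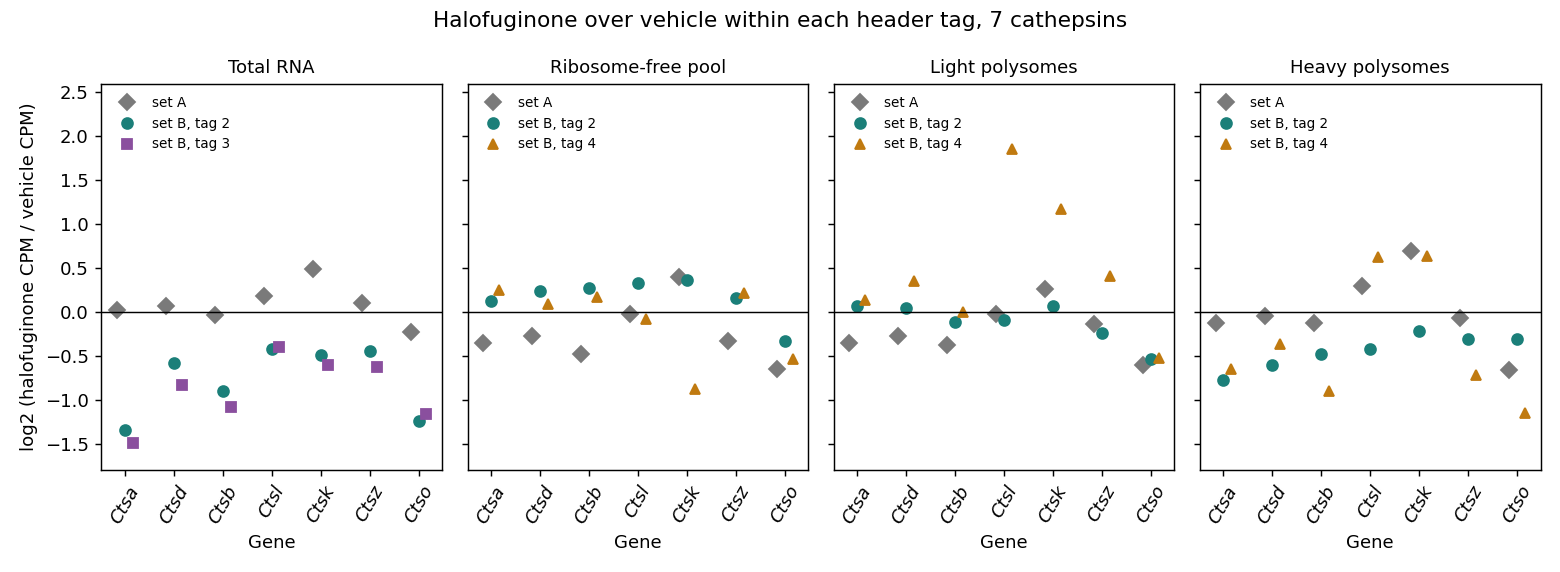
Log2 ratio of halofuginone to vehicle CPM for 7 cathepsins (horizontal axis) within each header tag, in total RNA and the 3 gradient pools, with 0 marking equal levels. In total RNA the set B points lie between -1.49 and -0.40 and the set A points between -0.23 and 0.49, and in the pools points lie on both sides of 0. The tags did not pair the libraries in total RNA.

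Promoters were searched for motifs of lysosomal and stress factors, since the members moved together in set B. The RefSeq windows reach from 250 bases before to 50 after a start (build GRCm38.p6). Windows were at hand for 8 of the 10 genes, with 9 windows in all, since Ctsa has 2 starts. Ctsb and Ctsh had no window, so the search leaves out Ctsb, which fell by 1.04 in set B. The E-box CACGTG, which reads the same on both strands, was found in 4 of the 9 windows (Ctsa, Ctsd, Ctsl and Ctsf), against 7.15% of all 32851 windows. Its longer form TCACGTGA, the core of the element bound by TFEB and its relatives, was in 2 of the 9 (Ctsa and Ctsd), against 0.974% of all windows. TTGCATCA, a core of the element bound by ATF4 with C/EBP factors, searched on both strands, was in 0 of the 9, against 0.895% of all windows. The stretches around the matches follow, 5′ to 3′ on the strand of the gene, to show how they are placed. Capitals mark CACGTG, or TCACGTGA where the longer form was matched.
Ctsa (chr2:164833733-164833792, plus strand): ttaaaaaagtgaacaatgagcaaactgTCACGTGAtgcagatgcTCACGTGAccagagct
Ctsd (chr7:142387892-142387953, minus strand): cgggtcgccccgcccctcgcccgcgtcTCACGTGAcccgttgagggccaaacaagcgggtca
Ctsl (chr13:64370723-64370770, minus strand): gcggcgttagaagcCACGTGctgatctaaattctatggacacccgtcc
Ctsf (chr19:4855058-4855119, plus strand): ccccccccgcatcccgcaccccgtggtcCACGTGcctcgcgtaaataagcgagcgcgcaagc
Ctsa holds 2 copies of TCACGTGA, with first bases at -13 and 4 relative to its second start at 0, and Ctsd holds 1 at -99. Ctsl holds only the shorter form, at -236, and Ctsf at -79, and Ctsd has a further CACGTG at -245 outside the stretch shown. These places are counted from the RefSeq starts. By the gene bounds of the GENCODE annotation, the stretches shown for Ctsa, Ctsd and Ctsl lie inside the gene, and that of Ctsf lies before it. Ctsk, Ctso, Ctss and Ctsz held none of the 3 motifs in these windows. A match describes the letters and does not show that a factor binds there. The genes with TCACGTGA fell by 1.47 (Ctsa) and 0.75 (Ctsd) on the log2 scale in set B, and Ctso, with no match, fell by 1.26.

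The other genes of the pathway were taken from lists, with values again given by set and tag. Among cystatins, the inhibitors of cysteine cathepsins, 2 of 3 tested genes fell in set B and none rose. Over all genes 36.9% were called lower there, and 3 genes are too few to set apart from that share. Cst3 (cystatin C, a secreted inhibitor) was at 933, 230 and 213 CPM with halofuginone in set A, tag 2 and tag 3, against 974, 532 and 562 CPM with vehicle, a log2 fold change of -1.35 ± 0.08 in set B. Cst6 fell by 1.63 on the same scale, while Cstb stood at -0.13 (edgeR adjusted p = 0.196).

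Of 13 genes that process or sort cathepsins or form a complex with them, 11 fell and 1 rose in set B. Over all genes 36.9% were called lower and 33.1% higher there. Lgmn, the asparaginyl endopeptidase that cuts several cathepsins into 2 chains, was at 252, 88.7 and 87 CPM with halofuginone, against 252, 209 and 233 CPM with vehicle (log2 fold change in set B -1.38 ± 0.08). Nagpa, which uncovers the mannose 6-phosphate tag, fell by 1.16, and Gga3, an adaptor for sorting receptors, rose by 0.80. Of 33 other lysosomal hydrolases tested, 26 fell and 3 rose, against the same shares of all genes, with a median of -0.86. Lipa (acid lipase) was at 151, 50.8 and 52.3 CPM with halofuginone, against 167, 150 and 137 CPM with vehicle. Asah1 (acid ceramidase) went the other way, at 239, 616 and 619 CPM with halofuginone against 251, 273 and 234 CPM with vehicle, a rise of 1.24 in set B. Gm2a, the activator of ganglioside breakdown, fell by 1.69, and the carboxypeptidase Scpep1 rose by 0.82.

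Of 20 membrane genes tested in set B, 9 fell and 3 rose (median -0.075), and of 17 proton pump genes 7 fell and 7 rose (median -0.043). Over all genes 36.9% were called lower and 33.1% higher, so these counts lie near the background, apart from the few membrane genes that rose. Npc1, which exports cholesterol, was at 137, 367 and 369 CPM with halofuginone, against 148, 154 and 151 CPM with vehicle, a rise of 1.23. Cln3 fell by 1.56, and Tmem192 rose by 0.28. Among pump subunits Atp6v0a1 fell by 1.08 and Atp6v1a by 0.94, while Atp6v1g1 rose by 0.73 and Atp6v1h by 0.64. Of the 3 MiT/TFE factors tested, Mitf fell by 1.74 and Tfeb by 1.82, and Tfe3 stood at 0.18 and did not pass. Mitf was at 39.8, 16.1 and 16.3 CPM with halofuginone, against 44.9, 56.4 and 48.2 CPM with vehicle. None of the 12 further cathepsin genes listed (such as Ctsc and Ctsw) had enough counts to be tested in any comparison.

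**Figure D3:**
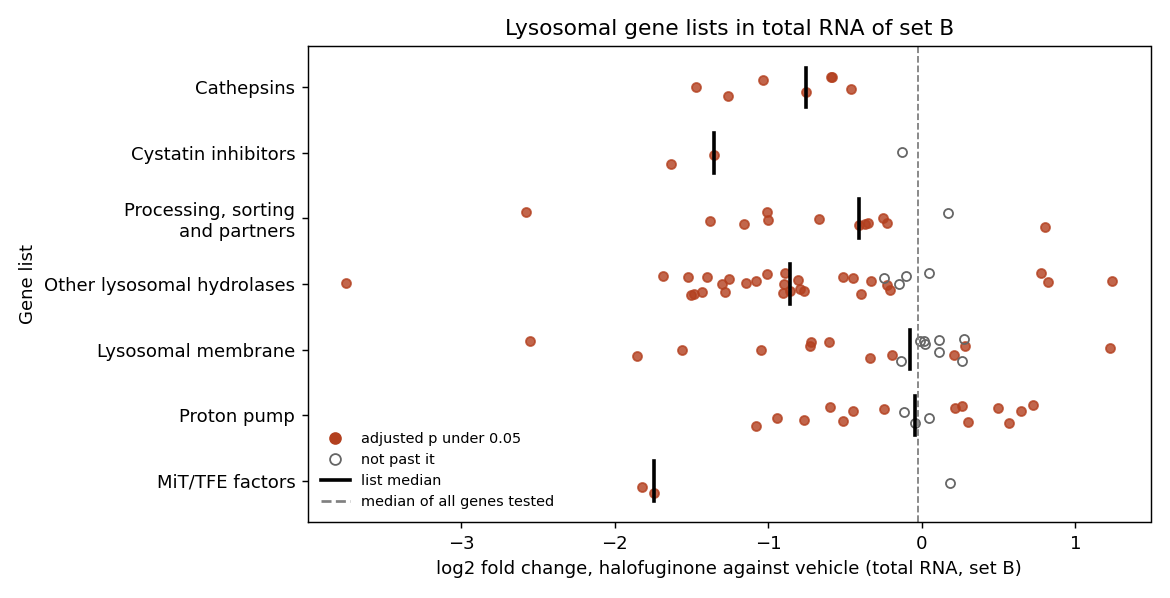
Log2 fold change of halofuginone against vehicle in total RNA of set B (horizontal axis) for each tested gene of 7 lysosomal lists (rows), filled where edgeR's adjusted p was under 0.05, with a bar at the list median and a dashed line at the median of all genes. All 7 cathepsins lie left of the dashed line (median -0.75), while the membrane and proton pump lists spread to both sides.

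Over all 6 total RNA libraries edgeR called no gene of these lists, and DESeq2 called Arsb and Atp6v1a lower. Among the genes with the smallest p in their lists were Cst6 at -0.69, Gnptab, which builds the mannose 6-phosphate tag, at -0.70, the sulfatase Arsb at -1.03, Atp6v1a at -0.70 and Mitf at -1.05 on the log2 scale, with edgeR adjusted p-values of 0.267 to 0.468. In set A the median log2 ratio was 0.05 for 3 cystatins, 0.0035 for 12 processing and sorting genes and -0.074 for 32 hydrolases. For tag 3 the same medians were -1.40, -0.49 and -0.83.

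In the gradient pools halofuginone and vehicle were compared pool by pool, which asks how the mRNA on ribosomes changed. No cathepsin passed in any pool in the main fits, which leave the libraries unpaired by tag. With the tag as a replicate block none passed either. Values are for set A, tag 2 and tag 4 in that order. In the ribosome-free pool (free RNA and ribosomal subunits) Ctsb was at 561, 815 and 663 CPM with halofuginone, against 779, 675 and 590 CPM with vehicle. Ctsl was at 289, 544 and 120 CPM with halofuginone, against 294, 433 and 127 CPM with vehicle, so that the spread across tags exceeded the difference within a tag. The fitted log2 fold changes of the 7 ran from -0.47 (Ctso) to 0.26 (Ctsk), with a median of -0.051 and adjusted p-values of 1 in edgeR. Of 11960 genes edgeR called 0 (0%) (30 had a raw p under 0.05), DESeq2 called 1, and a fit with the tag as a replicate block called 15.

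In light polysomes Ctsl was at 672, 774 and 1233 CPM with halofuginone, against 682, 822 and 342 CPM with vehicle. The pair of tag 4 was the one that differed, with a log2 ratio of 1.85, and without it the 2 other pairs were close to equal. Ctsk showed the same shape at 50.9, 50.3 and 37.2 CPM with halofuginone, against 42.5, 48 and 16.4 CPM with vehicle. Ctso was lower in each pair, at 3.57, 7.41 and 7.64 CPM with halofuginone, against 5.43, 10.8 and 11 CPM with vehicle. The fitted changes were 0.54 ± 0.40 for Ctsl, 0.37 ± 0.39 for Ctsk and -0.55 ± 0.43 for Ctso, with edgeR adjusted p-values of 0.981 to 0.987. Of 12632 genes edgeR called 0 (0%) (540 had a raw p under 0.05), DESeq2 called 40, and the fit with the replicate block called 3.

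In heavy polysomes, the mRNAs with the most ribosomes, Ctsa was at 981, 543 and 764 CPM with halofuginone, against 1072, 933 and 1193 CPM with vehicle. Ctsb was at 1943, 2467 and 1670 CPM with halofuginone, against 2125, 3440 and 3108 CPM with vehicle. Both genes were lower with halofuginone in each pair, though the groups overlapped. Ctsz was at 447, 415 and 365 CPM with halofuginone, against 469, 516 and 602 CPM with vehicle, and was the only one of the 10 whose halofuginone libraries all lay below all vehicle libraries here, as did those of 7.06% of the 12222 genes tested, so this too is near the background. Ctsd was at 894, 487 and 730 CPM with halofuginone, against 924, 744 and 936 CPM with vehicle.

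Ctsl and Ctsk had no such direction in heavy polysomes. Ctsl was at 2163, 3471 and 3037 CPM with halofuginone, against 1758, 4657 and 1961 CPM with vehicle, and Ctsk at 131, 141 and 111 CPM with halofuginone, against 81, 163 and 71.2 CPM with vehicle. Ctso was at 5.58, 19.3 and 11.2 CPM with halofuginone, against 8.83, 24 and 24.9 CPM with vehicle. Ctsf, a cysteine cathepsin with a long propeptide, had 22, 4 and 6 counts with halofuginone, against 38, 7 and 10 counts with vehicle. The fitted log2 fold changes were -0.51 ± 0.27 for Ctsb, -0.48 ± 0.28 for Ctsa, -0.37 ± 0.23 for Ctsz, -0.30 ± 0.29 for Ctsd, -0.67 ± 0.53 for Ctso, -0.71 ± 0.84 for Ctsf, 0.28 ± 0.35 for Ctsk and 0.05 ± 0.41 for Ctsl. Their edgeR adjusted p-values were 0.846 to 0.992, and the median of the 8 was -0.43, against 0.017 over all genes. Of 12222 genes edgeR called 0 (0%) (754 had a raw p under 0.05), DESeq2 called 73, and the fit with the replicate block called 2, no cathepsin among them. By pair, the median log2 ratio of the 7 was -0.07 in set A, -0.42 for tag 2 (7 of 7 below 0) and -0.64 for tag 4 (5 of 7 below 0). All 8 fibroblast markers were below 0 here too (median -1.06, none called), and their part in these values was not tested.

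Heavy polysomes were set against the ribosome-free pool within each treatment, with 7 of the 10 members testable. Of these 1 passed as higher in heavy polysomes with halofuginone and 3 with vehicle. None passed as lower, where 12.6% of all genes did with halofuginone and 17.7% with vehicle. Ctsl had the largest difference of the 7 in both fits. For this comparison CPM were scaled by TMM over the 6 libraries of a treatment. Ctsl was at 1663, 2639 and 2383 CPM in heavy polysomes, against 369, 684 and 155 CPM in the ribosome-free pool, of halofuginone cells. In vehicle cells it was at 1345, 3550 and 1494 CPM in heavy polysomes, against 413, 559 and 166 CPM in the ribosome-free pool.

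Ctsk was at 101, 107 and 86.7 CPM in heavy polysomes, against 36.3, 42.5 and 4.96 CPM in the ribosome-free pool, of halofuginone cells, and at 61.9, 124 and 54.2 CPM against 30.4, 34 and 9.26 CPM in vehicle cells. Ctsb was at 1494, 1875 and 1311 CPM in heavy polysomes, against 716, 1024 and 855 CPM in the ribosome-free pool, of halofuginone cells, and at 1626, 2622 and 2368 CPM against 1097, 870 and 772 CPM in vehicle cells. For 6 of the 7 members, all but Ctso, each heavy library exceeded each ribosome-free library in both treatments, as it did for 20.5% of all genes tested with halofuginone and 23.3% with vehicle. Ctso was alone in lying near equal, at 4.29, 14.7 and 8.82 CPM in heavy polysomes, against 4.02, 9.83 and 9.39 CPM in the ribosome-free pool, of halofuginone cells.

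**Figure D4:**
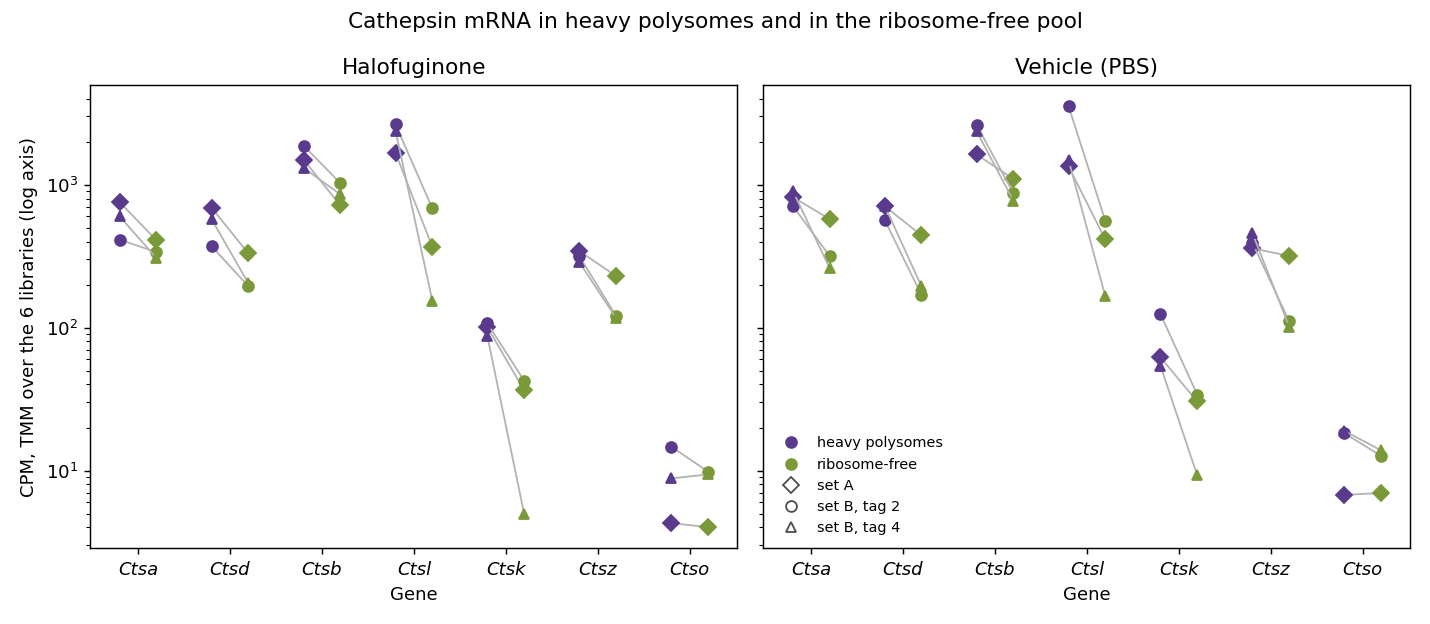
Level of 7 cathepsins (CPM scaled by TMM over the 6 libraries of a treatment, log axis) in heavy polysomes (left of each pair) and the ribosome-free pool (right), for halofuginone cells in the left panel and vehicle cells in the right panel, with lines joining libraries of the same tag. The lines fall from heavy to ribosome-free for every gene but Ctso, where log2 ratios within a tag lie between -0.09 and 0.58.

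In the halofuginone fit the log2 fold change of heavy against ribosome-free was 2.47 ± 0.57 for Ctsl (edgeR adjusted p = 0.0139), the single call among the 7, where 8.47% of the 12238 genes tested were called higher. Ctsk stood at 1.81 ± 0.64 (adjusted p = 0.0663 in edgeR) and passed with the tag as a replicate block at 2.22 (adjusted p = 0.000731), where 13.4% of genes were called higher. Ctsd stood at 1.16, Ctsz at 1.02, Ctsb at 0.85, Ctsa at 0.75 and Ctso at 0.26, with edgeR adjusted p-values of 0.0848 to 0.759. In the vehicle fit 3 of the 7 passed as higher in heavy polysomes, where 11.9% of the 12225 genes tested did. These were Ctsl at 2.49 ± 0.61 (edgeR adjusted p = 0.016), Ctsk at 1.71 ± 0.54 (adjusted p = 0.0409) and Ctsb at 1.27 ± 0.41 (adjusted p = 0.0447). Ctsd at 1.30, Ctsz at 1.19, Ctsa at 1.08 and Ctso at 0.40 did not pass in this fit. With DESeq2 all but Ctso passed (Ctsd, Ctsa and Ctsz at adjusted p of 0.0118 to 0.0367), where 13.1% of genes were called higher, and with halofuginone DESeq2 called Ctsl, Ctsk (adjusted p = 0.0168) and Ctsd (adjusted p = 0.0397), where 10.2% were. With the replicate block, where 16.8% of genes were called higher, Ctsb no longer passed (1.26, edgeR adjusted p = 0.0572) and Ctsd did (1.44, adjusted p = 0.0305). The median of the 7 was 1.02 with halofuginone and 1.27 with vehicle, against 0.024 and -0.02 over all genes.

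Single libraries decided several of these calls, in both directions. Without the ribosome-free library of set A, 6 of the 7 passed in vehicle cells, where 23.1% of genes were called higher. There Ctsz stood at 1.93 (edgeR adjusted p = 0.0015), Ctsd at 1.87 (0.00175) and Ctsa at 1.495 (0.00363), so that for Ctsz this library moved the value by over 1.5 times. The same 6 passed in vehicle cells within set B, where 22.1% of genes did, with Ctsz at 2.002, and with no filter on low counts, where 10.1% did. With no filter Ctsk passed beside Ctsl in halofuginone cells, where 7.4% of genes did. Without the set A ribosome-free library of halofuginone cells, Ctsd (1.48, edgeR adjusted p = 0.0272) and Ctsz (1.44, adjusted p = 0.018) passed beside Ctsl, where 13.9% of genes were called higher. Calls were also lost. In the vehicle fit Ctsb lost its call whichever library was left out except the ribosome-free library of set A (edgeR adjusted p of 0.0557 to 0.135). Ctsk lost it without the ribosome-free library of tag 4, or the heavy library of set A or of tag 2 (0.067 to 0.123), and Ctsl without the heavy library of tag 2 (0.0517). In the halofuginone fit Ctsl kept its call whichever library was left out, but not within set B alone (2.59, edgeR adjusted p = 0.0507). The share of mitochondrial counts moved with the pool, at 0.276% to 0.746% in heavy against 8.69% to 34.9% in ribosome-free libraries, and its part in these values was not tested. Scaling to raw library totals in place of TMM would add, on the mean of the libraries, 0.71 (halofuginone) and 0.82 (vehicle) to the log2 ratio of every gene. The size of the difference between pools therefore depends on the scaling, while this common shift leaves the order of the genes as it is.

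Among the other lists, 3 of 13 processing and sorting genes were higher in heavy polysomes with halofuginone and 6 of 13 with vehicle, and none was lower. Over all genes tested, 8.47% were called higher and 12.6% lower with halofuginone. With vehicle the shares were 11.9% higher and 17.7% lower. Psap, the precursor of the saposins, was higher by 2.24 with halofuginone and 2.23 with vehicle, and Lgmn by 1.59 with halofuginone and 1.78 with vehicle. Of 32 other hydrolases 4 were higher and 1 lower with halofuginone, and 9 were higher and 1 lower with vehicle. Sgsh, a sulfatase of heparan breakdown, was higher by 2.10 with halofuginone and 2.24 with vehicle, and Ids, another sulfatase, was lower, at -2.14 with halofuginone and -1.98 with vehicle. The cytosolic cystatin Cstb was lower in heavy polysomes, at -2.24 with halofuginone and -2.73 with vehicle. Of 19 membrane genes 2 were higher and 2 lower with halofuginone, and 4 were higher and 3 lower with vehicle. Of 17 proton pump genes 2 were higher and 4 lower with halofuginone, and 3 were higher and 4 lower with vehicle. The membrane and proton pump lists hold too few genes to set their counts apart from the shares of all genes.

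Whether the halofuginone change itself differed between RNA kinds was tested as an interaction, and no cathepsin passed. Heavy minus ribosome-free, the difference of log2 fold changes ran from -0.44 ± 0.45 (Ctsb) to 0.09 ± 0.91 (Ctsk) over 8 members. Heavy minus total RNA, it ran from -1.18 ± 1.65 (Ctsf) to 0.43 ± 0.46 (Ctsk). All edgeR adjusted p-values were 1, which does not show that the changes were alike. Of 13053 and 13459 genes tested, edgeR called 0 (0%) in each. A raw p under 0.05 was found for 53 and 128 genes, and DESeq2 called 0 and 1.

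Over the 24 libraries, which share RNA kinds, sets and treatments, some members were alike in log2 CPM. Ctsk and Ctsl correlated at Pearson r = 0.92, Ctsa and Ctsd at 0.92 and Ctsd and Ctsz at 0.87, while Ctso correlated at -0.05 with Ctsd and 0.56 with Ctsb. Among 10129 genes at a mean of 5 CPM or more, those most like Ctsl were Ctsk (0.92), Plin2 (0.91) and Hnrnpd (0.90). For Ctsb they were Pdk3 (0.93), Rnh1 (0.90) and Acadm (0.90), and for Ctsd they were Men1 (0.94), Pigs (0.93) and Ndufv1 (0.93).

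The encoded proteins differed in proline, the amino acid whose tRNA charging halofuginone blocks. In coding sequences of the GENCODE annotation proline made up 6.71% of residues in Ctsa, 5.61% in Ctsd, 5.02% in Ctsb, 4.49% in Ctso, 4.25% in Ctsz, 3.65% in Ctsk and 2.99% in Ctsl, against a median of 5.27% over 21479 genes. Ctsa, the richest of the 7, had the largest fall in set B and Ctsl, the poorest, the smallest, but Ctso, in the middle, had the second largest. No test was made of this order, since the 7 genes are few and were measured in the same libraries. All but Ctsa and Ctsd are also related cysteine proteases, and so not independent.

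By the GENCODE annotation of GRCm38 all 10 are protein-coding genes, and some overlap others. The gene body of Ctsb (chromosome 14, 63122462 to 63145923, plus strand) shares 774 bases with Fdft1 on the opposite strand, and that of Ctsa (chromosome 2, 164832873 to 164841032, plus strand) shares 1515 with Pltp and 584 with Neurl2, both on the opposite strand. Ctsd (chromosome 7, 142375911 to 142388038, minus strand) shares 6757 bases with the predicted gene Gm49369 on the same strand. Ctsl (chromosome 13, 64359337 to 64370890, minus strand) shares 1971 bases with the antisense gene Gm47123 and 395 with the pseudogene Gm49230. Ctsz (chromosome 2, 174427493 to 174439039, minus strand) shares 10 with Nelfcd, while Ctsk (chromosome 3, 95499256 to 95509362, plus strand) and Ctso (chromosome 3, 81932601 to 81956725, plus strand) share none. The library kit keeps the strand, but the sources used here do not give the strand setting of the counting, so reads in the opposite-strand overlaps are less certain. Gm49369 and Gm49230 lie on the same strand as Ctsd and Ctsl, so no strand setting would separate the reads there, and these too are less certain.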

How the data were processed

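The authors deposited a table of read counts per gene symbol for 24 libraries, with 0 columns of other samples. Their processing notes name STAR 2.5.2b, Trimmomatic 0.36, featureCounts of Subread 1.5.0p3 and build GRCm38.p5. The sources used here do not give the strand setting or the treatment of multimapping reads. No spike-in is mentioned, so values are shares of a library.

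Headers were matched to groups by treatment and fraction, not to single samples. Each comparison was fitted on its own libraries with edgeR 4.0.16 (quasi-likelihood test, TMM scaling, default filter, Benjamini-Hochberg threshold 0.05) in R 4.3.3, and with DESeq2 1.42.0 as an alternative. The fits were tested on simulated data with 1 fixed spread and no effect of set or tag, which cannot show how they handle the sets. In the pools same-tag libraries correlated at 0.364 to 0.898 between treatments and 0.221 to 0.499 between pools, in deviations from group means over genes. Ratios within a tag and the replicate block follow this pairing. The main fits do not use it, so in the pools their SE and p-values also carry the spread between tags. All cathepsins are named. From each list the 2 largest rises and 2 largest falls among called genes at a mean of 5 CPM or more are named, otherwise the gene with the smallest p. 1 gene that this rule names is not reported here. Levels per length use the shortest transcript with the longest coding sequence in GENCODE vM21. The members, lists and tests were chosen with earlier results of these data known. The length alternative was added after the data were seen.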

Additional observations from a re-analysis of the deposited data

Results flagged for a closer look

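The ratio of mean CPM with halofuginone to that with vehicle for Ctsl was 0.855 in total RNA and 1.45 in light polysomes. In total RNA each halofuginone library lay below the vehicle mean, and in light polysomes each lay above it. The difference was not tested. In light polysomes the vehicle library of tag 4 (342 CPM) is far below those of set A and tag 2 (682 and 822 CPM), and the halofuginone libraries of set A and tag 2 (672 and 774 CPM) lie below their own vehicle partners.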

How the results depend on the processing

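Of 798 comparisons of a cathepsin's log2 fold change with its value under an alternative, 673 kept direction and side of the threshold, 32 gained the threshold, 11 lost it and 82 changed sign, always for estimates that had not passed. All 56 made within set B of total RNA kept both. In total RNA the count of called genes was 454 with DESeq2, 9337 within set B and 0 to 8246 with 1 library left out. In the ribosome-free pool it was 1 with DESeq2 and 15 with the replicate block. In light polysomes it was 40 with DESeq2, 47 with no filter and 3 with the replicate block, and in heavy polysomes 73, 105 and 2. For heavy against ribosome-free it was 1383 within set B and 688 to 3600 with 1 library left out for halofuginone, and 5524 and 1897 to 5844 for vehicle. For the interaction with the ribosome-free pool it was 7 with no filter and 1 within set B, and for that with total RNA 1 with DESeq2, 1 with no filter and 0 to 3 with 1 library left out. The cause of these moves was not tested.

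Sign changes were as follows, on the log2 scale. With 1 library left out, the halofuginone change in total RNA spanned -1.02 to 0.0067 for Ctsd and -0.51 to 0.016 for Ctsk. In the ribosome-free pool it spanned -0.24 to 0.30 for Ctsa, -0.16 to 0.12 for Ctsb, -0.34 to 0.45 for Ctsd, -0.19 to 0.77 for Ctsk, -0.48 to 0.61 for Ctsl and -0.48 to 0.58 for Ctsz. There the replicate block gave 0.0041 for Ctsa, 0.014 for Ctsd and 0.012 for Ctsz, and set B alone 0.17 for Ctsa, 0.21 for Ctsb, 0.15 for Ctsd and 0.18 for Ctsz. In light polysomes it spanned -0.25 to 0.24 for Ctsa, -0.27 to 0.46 for Ctsd and -0.19 to 0.32 for Ctsz. Ctsd stood there at 0.0079 with DESeq2, 0.0071 with RLE scaling, 0.042 with the replicate block and 0.24 in set B, and Ctsa at 0.11 in set B. In heavy polysomes it spanned -1.65 to 0.16 for Ctsf and -0.19 to 0.64 for Ctsl, with -0.023 for Ctsl in set B. Heavy against ribosome-free with halofuginone spanned -0.21 to 0.64 for Ctso. The interaction with the ribosome-free pool spanned -0.79 to 0.065 for Ctsd, -2.48 to 0.48 for Ctsf, -0.49 to 0.56 for Ctsk, -0.53 to 0.56 for Ctsl, -0.63 to 0.21 for Ctso and -1.001 to 0.13 for Ctsz, and the replicate block gave 0.22 for Ctsl. The interaction with total RNA spanned -0.19 to 1.20 for Ctsa, -0.10 to 0.51 for Ctsb, -0.30 to 0.73 for Ctsd, -2.12 to 0.97 for Ctsf, -0.30 to 0.56 for Ctso and -0.29 to 0.32 for Ctsz, with 0.034 for Ctsz in set B.

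In total RNA the tags did not pair the libraries (same-tag correlations of deviations over genes of 0.302, 0.347 and -0.0081), and a replicate block there called 0 genes over all libraries and 9128 in set B. In the pools the block changed no call of a cathepsin beside those given for Ctsb, Ctsd and Ctsk. The number of libraries, the small spread of the set B halofuginone pair and the unsettled dose of set A limit these results. Counting depth limits only Ctsf, Ctsh and Ctss.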
